A study of Homo sapiens with 8 samples.

Results

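The 10 genes described here set or mark the state of melanoma cells. MITF, SOX10, PAX3 and TFAP2A are transcription factors of the melanocyte lineage, PPARGC1A is a metabolic coactivator, PMEL and TYR are pigment genes, and SOX9, AXL and NGFR are used as marks of dedifferentiated cells. They were chosen by gene symbol, and each of the 10 had a row in all 3 deposited tables, which hold 56638 entries. RNA sequencing was done on A375, an established line from a human melanoma with an activating BRAF mutation. The 4 groups were cells that received plasmid with full-length SLNCR1 (a long noncoding RNA linked to melanoma invasion), with SLNCR1 lacking its conserved region (delta-conserved), with the conserved region alone, or with no insert (vector). All cells were grown with 10% serum, transfected with pcDNA3.1(-) by Lipofectamine 2000, 24 h after seeding, and harvested 48 h later. Each group had 2 libraries, and the host cells kept their own SLNCR1 gene throughout.

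In melanocytes, SOX10 and PAX3 switch on MITF, which in turn drives the genes of pigment synthesis. MITF also drives PPARGC1A, which raises mitochondrial gene expression, in a subset of melanomas. Cells with little MITF output and much AXL, NGFR or SOX9 are described as dedifferentiated or invasive, and they tend to tolerate BRAF inhibitors better.

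Whole reads of single libraries were recovered from the deposited group means, and the deeper library of each group is called a, the other b. Total reads were 10097194 and 9090649 with SLNCR1, 9187241 and 8222868 with delta-conserved, 11340089 and 10280456 with the conserved region, and 12015394 and 11321294 in vector cells. The transfected RNA was read through the entry LINC00511, since no row is named SLNCR1 or LINC00673 and the RefSeq transcripts of LINC00673, of which SLNCR1 is a synonym, all match LINC00511 transcripts in GENCODE release 29. LINC00511 had 859 and 880.1 normalized counts with SLNCR1, 1147 and 864 with delta-conserved, 1045 and 1133 with the conserved region, and 623 and 617 in vector cells, so every library with a construct lay above both vector libraries. The authors' adjusted p was 0.00559 with SLNCR1, 0.145 with delta-conserved and 5.89e-15 with the conserved region. Limma, described further on, gave 0.000297 with delta-conserved. Which exons this entry counts is not known, so its counts do not compare the amounts of the constructs. One library lay away from the rest, namely SLNCR1 library b, with a score of 24.01 on principal component 2 where the remaining 7 ranged from -18.11 to 4.93. Component 2 held 15.9% of the variance. Limma results for SLNCR1 against vector, given further on, are also given without that library, while the authors' test cannot be repeated without it. Without it limma called 69 genes higher and 671 lower of 16058, against 632 and 1190 with both libraries. Whether the paired libraries are separate cultures is not stated in the labels, and p-values then measure a sample-to-sample spread that may be technical only.

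In the authors' tables, PPARGC1A was the member with the largest changes. It fell with SLNCR1 and with delta-conserved, SOX10 rose slightly with delta-conserved, and no member was called with the conserved region. A call against vector means an adjusted p under 0.05 in the authors' deposited table. MITF passed in none of the authors' comparisons, but was lower with SLNCR1 and with delta-conserved than with the conserved region when constructs were compared directly. The melanosomal gene PMEL was low and TYR nearly absent in every group, while AXL and NGFR were plentiful throughout.

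The promoter windows below are shown because they belong to PPARGC1A, the member that changed most, to MITF, its known activator, and to TYR, a textbook MITF target that was almost silent here. They come from RefSeq on build GRCh38.p14, 250 bases before to 50 after a gene's start, whereas the deposited tables were made on hg19. Of the 10 members, 6 had windows (11 in all). SOX10, PMEL, SOX9 and NGFR had no window. Capitals mark the motifs searched on both strands: the M-box core CATGTG bound by MITF, the E-box CACGTG, the cAMP response motif TGACG and the SOX core ACAAAG. Capitals can therefore also show a reverse complement, such as CTTTGT for the SOX core or CGTCA for the cAMP response motif.
MITF chr3:69936342-69936641, plus strand: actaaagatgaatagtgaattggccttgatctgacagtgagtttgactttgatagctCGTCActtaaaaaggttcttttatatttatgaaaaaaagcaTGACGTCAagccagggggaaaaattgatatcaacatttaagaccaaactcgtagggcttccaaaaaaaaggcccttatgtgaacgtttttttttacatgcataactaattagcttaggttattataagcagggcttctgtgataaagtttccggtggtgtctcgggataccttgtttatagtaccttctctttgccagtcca
PPARGC1A chr4:23881052-23881351, minus strand: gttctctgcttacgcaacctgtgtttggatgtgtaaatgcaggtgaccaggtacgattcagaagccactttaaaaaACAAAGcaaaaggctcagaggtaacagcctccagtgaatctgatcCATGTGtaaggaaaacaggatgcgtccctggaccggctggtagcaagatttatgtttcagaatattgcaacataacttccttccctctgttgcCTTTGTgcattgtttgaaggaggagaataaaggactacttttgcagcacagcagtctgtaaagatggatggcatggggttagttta
PPARGC1A chr4:24472856-24473155, minus strand: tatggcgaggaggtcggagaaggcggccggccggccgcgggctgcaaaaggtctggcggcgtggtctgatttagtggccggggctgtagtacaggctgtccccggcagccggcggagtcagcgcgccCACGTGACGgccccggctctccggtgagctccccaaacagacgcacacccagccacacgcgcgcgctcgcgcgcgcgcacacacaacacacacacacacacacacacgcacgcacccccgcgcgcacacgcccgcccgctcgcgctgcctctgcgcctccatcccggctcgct
TYR chr11:89177625-89177924, plus strand: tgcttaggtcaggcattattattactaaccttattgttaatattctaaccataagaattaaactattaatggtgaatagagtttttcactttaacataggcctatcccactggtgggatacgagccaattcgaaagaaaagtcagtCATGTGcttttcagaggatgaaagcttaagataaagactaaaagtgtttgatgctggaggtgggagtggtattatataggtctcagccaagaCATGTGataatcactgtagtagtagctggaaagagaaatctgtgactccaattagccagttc

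The MITF window shown held 3 cAMP response motifs, and those at -152 and -149 from the start overlap on opposite strands. It is the window ahead of the melanocyte-type MITF start. Of the MITF windows not shown, that at 69763561 held 1 SOX core at -189 and that at 69739214 none of the motifs. The PPARGC1A window at 23881052 held 1 M-box core at -129 and 2 SOX cores at -174 and -36. The window at 24472856 held 1 E-box at -123 that overlaps a cAMP response motif at -119. Of 18 GENCODE transcripts of PPARGC1A, 1 starts inside the window at 23881052 and 0 inside that at 24472856. Which PPARGC1A start these cells use was not tested. TYR had M-box cores at -104 and -12. An AXL window not shown, at 41226505, also held an M-box core at -79, with a SOX core at -178 and a cAMP response motif at -195. The other AXL window and those of PAX3 and TFAP2A held none of the motifs. Among all 35116 windows of this length, 11.1% hold the M-box core, 7.26% the E-box, 24.6% the cAMP response motif and 16.1% the SOX core. These matches describe letters in a window, not binding.

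Levels of the members in vector cells spanned a wide range when divided by exon length, taken over all annotated transcripts of a gene. SOX10, the neural crest and melanocyte factor, had 828 ± 58.0 normalized counts per kb (SD, n = 2) and the receptor kinase AXL 806 ± 55.5, a difference smaller than either SD. NGFR, the low-affinity neurotrophin receptor, followed at 224 ± 14.6 per kb, and SOX9, a neural crest factor often opposed to SOX10, at 135 ± 5.08 per kb. MITF stood at 99.0 ± 3.63 per kb, TFAP2A, which works beside MITF at many melanocyte genes, at 48.9 ± 1.11, and PAX3 at 40.9 ± 4.07. PPARGC1A at 11.3 ± 1.56 per kb and PMEL at 8.16 ± 2.21 differed by little more than their SDs, and the other neighbours in this order by more than either SD. TYR, the rate-limiting enzyme of melanin synthesis, had 0.293 ± 0.414 per kb, from libraries with 0 and 2 reads.

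**Figure D1:**
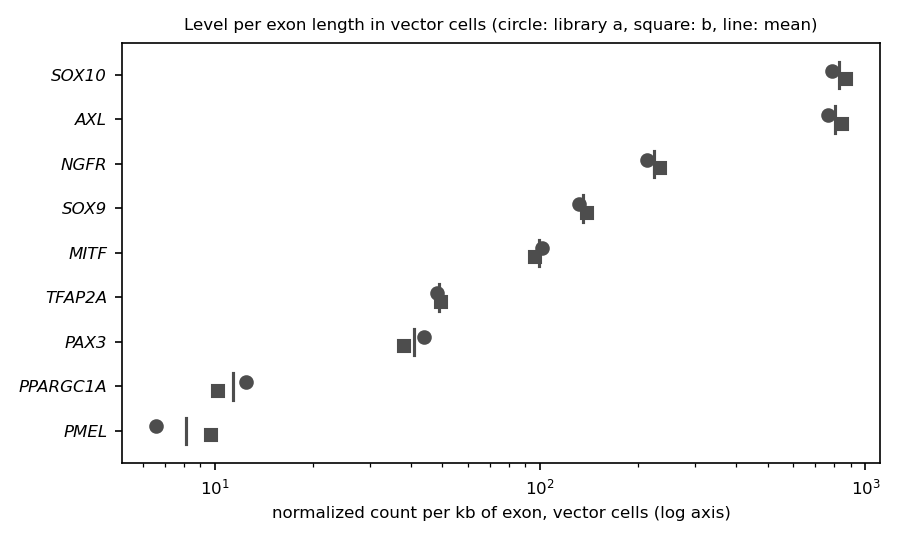
Normalized counts per kb of exon in the 2 vector libraries, on a log axis, for 9 members (circle library a, square library b, line the mean). SOX10 and AXL lie highest, at means of 828 and 806 per kb, PMEL and PPARGC1A lowest, and TYR is left off because 1 of its libraries had 0 reads.

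The labelled cell type was checked against melanocyte markers. SOX10, MITF and PAX3 were present in all 8 libraries, but most pigment markers were close to absent. MLANA, a melanosomal antigen, had 9 to 16 reads per library, TYRP1 3 to 13 and DCT 0 to 5. TYR had 5 reads in all libraries together. Other melanosome genes were expressed, such as GPNMB, a melanosomal glycoprotein with 1292 to 1472 normalized counts. Markers of other cell types were present in part. Of the keratinocyte markers, KRT10 had 532 to 683 and KRT14 73.4 to 108 normalized counts, KRT5 3.54 to 7.94, and DSG3 was at 0 in all 8 libraries. Of the endothelial markers, KDR, TEK and VWF lay between 4.97 and 22.5 normalized counts and PECAM1 was at 0 in all 8 libraries. In bulk RNA, fewer cells of a type and less RNA per cell cannot be told apart.

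PPARGC1A had 45.0 and 26.3 normalized counts with SLNCR1, 57.5 and 55.2 with delta-conserved, 105 and 119 with the conserved region, and 135 and 111 in vector cells. The SLNCR1 and delta-conserved libraries were all below every conserved-region and vector library, while the conserved-region and vector libraries overlapped. With 2 libraries per group, such separation can arise without a change. The share of all genes that show it was not counted, for this or any other member. Group means were 35.6 ± 13.2 with SLNCR1, 56.3 ± 1.61 with delta-conserved, 112 ± 9.82 with the conserved region and 123 ± 16.9 with vector (SD, n = 2 each). The mean with SLNCR1 was 0.289 of the vector mean, that with delta-conserved 0.457 and that with the conserved region 0.911.

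In the authors' deposited table, PPARGC1A fell with SLNCR1, at a log2 fold change of -1.79 (adjusted p = 1.76e-06). It was the only one of the 10 members called there, against 0.882% of all tested entries, of which 13 were higher and 283 lower. The log2 fold change with delta-conserved was -1.13 in the authors' deposited table (adjusted p = 0.000481). PPARGC1A was there one of 2 members called, against 2.26% of all entries (387 higher and 397 lower). With the conserved region, the deposited log2 fold change was -0.15 (adjusted p = 1), and none of the 10 members passed, against 0.0175% of all entries. No member had an unadjusted p under 0.05 there, beside 1.34% of all entries (460). All 3 comparisons share the vector libraries.

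The single libraries were also tested with limma on log2(normalized count + 1), which pools the spread over the 4 groups and covered 9 members, all but TYR. By limma, PPARGC1A differed from vector by -1.80 ± 0.217 with SLNCR1 (SE, adjusted p = 4.02e-05) and by -1.11 ± 0.217 with delta-conserved (adjusted p = 0.00421). With the conserved region the difference was -0.13, with a 95% interval of -0.585 to 0.327. Limma called 2 members with SLNCR1, against 11.3% of 16058 genes. It called 2 with delta-conserved, against 10.4%, and 0 with the conserved region, against 0.00623%. The SLNCR1 call held in all 15 other settings, at log2 differences of -2.18 to -1.43. Without SLNCR1 library b it was -1.43 (adjusted p = 1.98e-05). The delta-conserved call did not hold without vector library a (adjusted p = 0.0915), without delta-conserved library b (adjusted p = 0.0558) or without the variance trend (adjusted p = 0.109).

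PPARGC1A has 10.87 kb of exon over all its annotated transcripts, and long genes stood lower with full-length SLNCR1. The 1651 tested genes with at least 10 kb had a median limma log2 difference from vector of -0.14 with SLNCR1, against 0.023 for the 12122 shorter genes, and 17.9% of them were called lower, against 6.52%. With delta-conserved the medians were -0.026 for long genes and 0.0078 for shorter ones, and 5.81% of the long and 5.48% of the shorter genes were called lower. The SLNCR1 medians without SLNCR1 library b were -0.033 for long and 0.025 for shorter genes, and 6.24% of the long and 4.16% of the shorter genes were called lower, against 4.18% of all genes. The part of length in the PPARGC1A result was not tested.

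**Figure D2:**
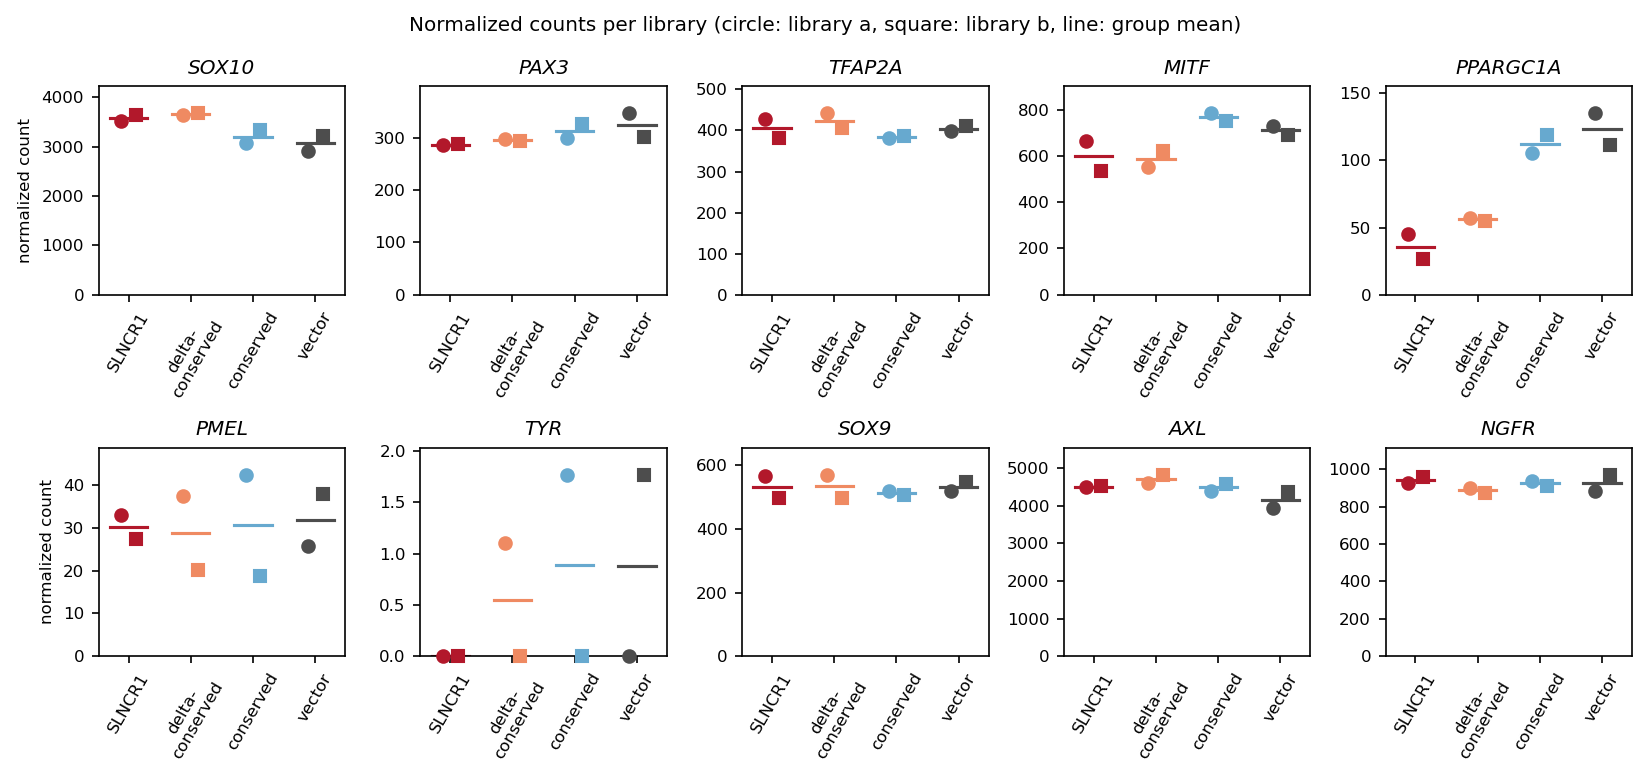
Normalized counts of the 10 members in each of the 8 libraries, with the groups SLNCR1, delta-conserved, conserved region and vector from left to right (circle library a, square library b, line the group mean). PPARGC1A is at 26.3 to 57.5 in the SLNCR1 and delta-conserved libraries and at 105 to 135 in the others. Relative to vector, the group means of the other expressed members change less. Single libraries range from 536 to 786 for MITF and from 18.9 to 42.5 for PMEL.

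MITF, the master regulator of the melanocyte lineage, had 666 and 536 normalized counts with SLNCR1, 552 and 622 with delta-conserved, 786 and 749.7 with the conserved region, and 729 and 693 in vector cells. The SLNCR1 and delta-conserved libraries did not overlap with vector and lay below it, and the conserved-region libraries lay above it. In the authors' deposited tables the log2 fold change was -0.24 with SLNCR1 (adjusted p = 1), -0.28 with delta-conserved (adjusted p = 0.140) and 0.094 with the conserved region (adjusted p = 1). Limma gave -0.25 ± 0.0938 with SLNCR1 (SE, adjusted p = 0.0885) and -0.28 ± 0.0938 with delta-conserved (adjusted p = 0.0686). Neither passed. The SLNCR1 value was -0.41 (adjusted p = 0.000767) without SLNCR1 library a and -0.094 (adjusted p = 0.605) without library b. With delta-conserved a limma call was made in 3 of 15 other settings, namely with library totals (adjusted p = 0.0284), without SLNCR1 library a (adjusted p = 0.00514) and without SLNCR1 library b (adjusted p = 0.00494).

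SOX10 had 3521 and 3649.9 normalized counts with SLNCR1, 3651 and 3678 with delta-conserved, 3077 and 3335 with the conserved region, and 2919 and 3224 in vector cells. The SLNCR1 and delta-conserved libraries were all above the others, and the conserved-region values overlapped with vector. In the authors' deposited table SOX10 rose by a log2 of 0.25 with delta-conserved (adjusted p = 0.0202). With SLNCR1 the authors' log2 fold change was 0.23 (adjusted p = 0.516) and with the conserved region 0.046 (adjusted p = 1). Limma called both, at 0.26 ± 0.0713 with delta-conserved (adjusted p = 0.0286) and 0.22 ± 0.0713 with SLNCR1 (SE, adjusted p = 0.0497). The delta-conserved call was kept in 8 of 15 other settings and the SLNCR1 call in 7. Both calls were lost without a filter on low counts and without the variance trend. Without vector library a the adjusted p-values were 0.228 with delta-conserved and 0.327 with SLNCR1. Without SLNCR1 library b the SLNCR1 value was 0.199 (adjusted p = 0.168), and that call was also lost without any 1 of the delta-conserved and conserved-region libraries (adjusted p = 0.0836 to 0.0856). The delta-conserved call was also lost without delta-conserved library a (adjusted p = 0.135) and without b (adjusted p = 0.216), and without conserved-region library a (adjusted p = 0.0534) and without b (adjusted p = 0.0531).

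PAX3, a paired-box factor that acts on MITF with SOX10, had 286 and 288 normalized counts with SLNCR1, 297 and 295 with delta-conserved, 299.9 and 327 with the conserved region, and 347 and 302 in vector cells. Its SLNCR1 and delta-conserved libraries lay just below vector, and its conserved-region libraries overlapped with it. The log2 differences by limma were -0.17 with SLNCR1 (adjusted p = 0.262), -0.13 with delta-conserved (adjusted p = 0.471) and -0.049 with the conserved region (adjusted p = 0.946). TFAP2A had 429 and 381 normalized counts with SLNCR1, 442 and 405 with delta-conserved, 382 and 387 with the conserved region, and 398 and 411 in vector cells. Its groups overlapped except that both conserved-region libraries were below the vector libraries and below the delta-conserved libraries. No difference from vector passed (limma adjusted p = 0.998 with SLNCR1, 0.726 with delta-conserved and 0.894 with the conserved region). The SLNCR1 adjusted p without SLNCR1 library b was 0.415 for PAX3 and 0.704 for TFAP2A.

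PMEL, which builds the fibrils on which melanin is laid down, had 33.0 and 27.4 normalized counts with SLNCR1, 37.6 and 20.1 with delta-conserved, 42.5 and 18.9 with the conserved region, and 25.7 and 37.9 in vector cells. All groups overlapped, and the limma interval for SLNCR1 against vector ran from -0.809 to 0.701, so changes inside that range could not be told from 0. The libraries of the conserved region differed most, at 48 and 19 reads of PMEL. Leaving out SLNCR1 library b, the SLNCR1 difference was 0.075 (adjusted p = 0.949). TYR had 0 and 0 reads with SLNCR1, 1 and 0 with delta-conserved, 2 and 0 with the conserved region, and 0 and 2 in vector cells. A count of 0 allows up to 3 reads in a library, by counting error only, and no fold is given for TYR.

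Of the marks of dedifferentiated cells, none was called against vector by the authors' test or by limma, and AXL with delta-conserved was the only one under 0.05 before adjustment in either. AXL had 4509 and 4509 normalized counts with SLNCR1, 4589.9 and 4822 with delta-conserved, 4392 and 4581 with the conserved region, and 3949 and 4354 in vector cells. All 6 libraries with a construct were above both vector libraries, which the 3 comparisons share. The limma differences were 0.12 with SLNCR1 (adjusted p = 0.282), 0.18 with delta-conserved (adjusted p = 0.119) and 0.11 with the conserved region (adjusted p = 0.829). The delta-conserved difference passed only without vector library b, at 0.25 (adjusted p = 0.0457). SOX9 had 568 and 498 normalized counts with SLNCR1, 570.15 and 498 with delta-conserved, 518 and 506 with the conserved region, and 519 and 547 in vector cells. SLNCR1 and delta-conserved overlapped with vector, at limma differences of -0.0031 (95% interval -0.189 to 0.183) and 0.00036 (-0.186 to 0.187), and the conserved-region libraries lay just below it. NGFR had 926 and 958 normalized counts with SLNCR1, 902 and 872 with delta-conserved, 937 and 911 with the conserved region, and 885 and 970.4 in vector cells. Each construct group of NGFR overlapped with vector, and the intervals reached from -0.213 to 0.173 over the 3 constructs. The limma difference with SLNCR1, leaving out SLNCR1 library b, was 0.12 for AXL (adjusted p = 0.461), 0.092 for SOX9 (adjusted p = 0.649) and -0.000067 for NGFR (adjusted p = 1).

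**Figure D3:**
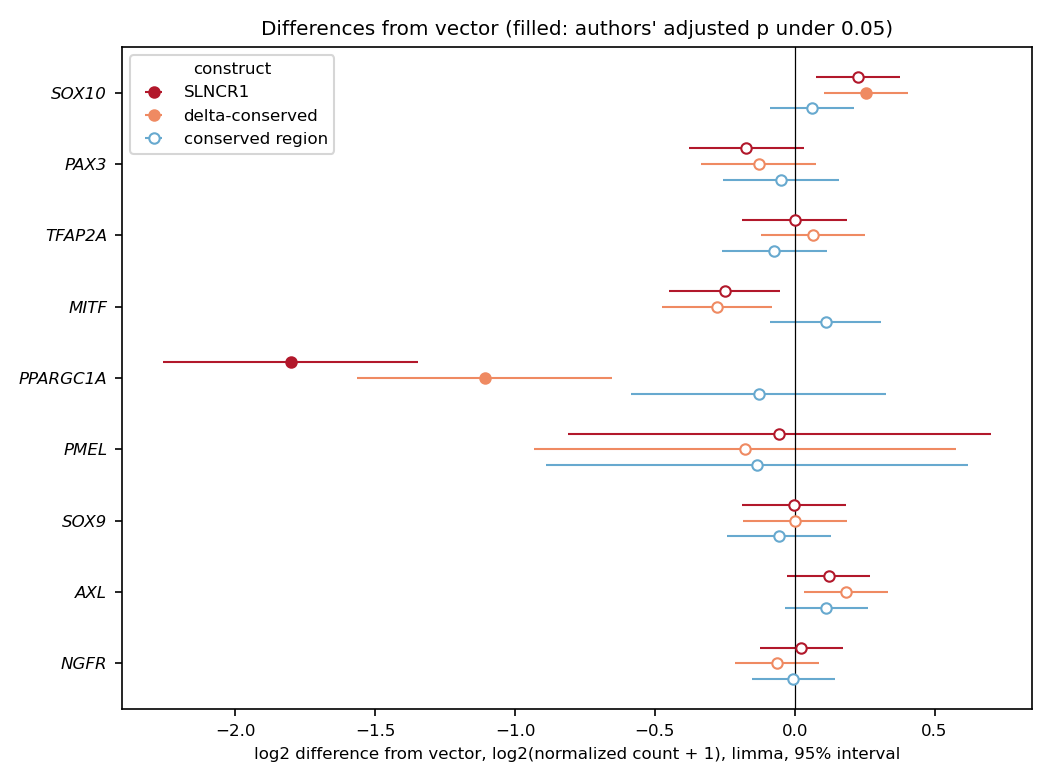
Limma log2 differences from vector with 95% intervals for 9 members and the constructs SLNCR1, delta-conserved and conserved region, on log2(normalized count + 1). Filled points are called in the authors' deposited tables: PPARGC1A with SLNCR1 at -1.80 and delta-conserved at -1.11, and SOX10 with delta-conserved at 0.26.

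The deposited tables compare each construct with vector only, so the constructs were set against each other by limma, with the difference taken as the first named minus the second. Of 9 members, 2 differed between SLNCR1 and the conserved region, against 11.5% of all genes. PPARGC1A was lower with SLNCR1, at a difference of -1.67 ± 0.217 (SE, adjusted p = 5.72e-05), and stayed so in all 15 other settings. Without SLNCR1 library b it was -1.30 (adjusted p = 5.04e-05). MITF was lower with SLNCR1 than with the conserved region, at a difference of -0.36 ± 0.0938 (adjusted p = 0.0172). This call held in 10 of 15 other settings, and was lost without SLNCR1 library b (-0.20, adjusted p = 0.177), without conserved-region library a (adjusted p = 0.163) and without its library b (adjusted p = 0.0709), without a filter on low counts (adjusted p = 0.101) and without the variance trend (adjusted p = 0.173). SOX10 stood 0.16 higher with SLNCR1 (95% interval 0.0125 to 0.312, adjusted p = 0.151).

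Between the conserved region and delta-conserved, the same 2 members differed, against 6.9% of all genes. PPARGC1A was 0.98 ± 0.217 higher with the conserved region (adjusted p = 0.0083) and MITF 0.39 ± 0.0938 higher (adjusted p = 0.0156). The PPARGC1A call was lost without either delta-conserved library (adjusted p = 0.0607 without a and 0.0718 without b), without conserved-region library b (adjusted p = 0.102) and without the variance trend (adjusted p = 0.124), and held in 11 of 15 other settings. The MITF call was lost without delta-conserved library a (adjusted p = 0.225), without either conserved-region library (adjusted p = 0.173 without a and 0.0751 without b), without a filter on low counts (adjusted p = 0.102) and without the variance trend (adjusted p = 0.193), and held in 10 of 15 other settings. SOX10 stood at -0.19 (95% interval -0.344 to -0.0441, adjusted p = 0.119), lower with the conserved region, and passed without SLNCR1 library a (adjusted p = 0.0450) and without b (adjusted p = 0.0438).

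SLNCR1 and delta-conserved differed in no member by limma, against 0% of all genes, although 1284 genes and 1 of 9 members had an unadjusted p under 0.05. That member was PPARGC1A, at -0.69 with a 95% interval of -1.15 to -0.238 (adjusted p = 0.481), an interval wholly below 0 that is not adjusted for the number of genes. It passed without SLNCR1 library a (-1.07, adjusted p = 0.000967), while without library b the difference was -0.32 (adjusted p = 1.0). The other intervals were -0.170 to 0.224 for MITF, -0.182 to 0.118 for SOX10 and -0.211 to 0.0885 for AXL.

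**Figure D4:**
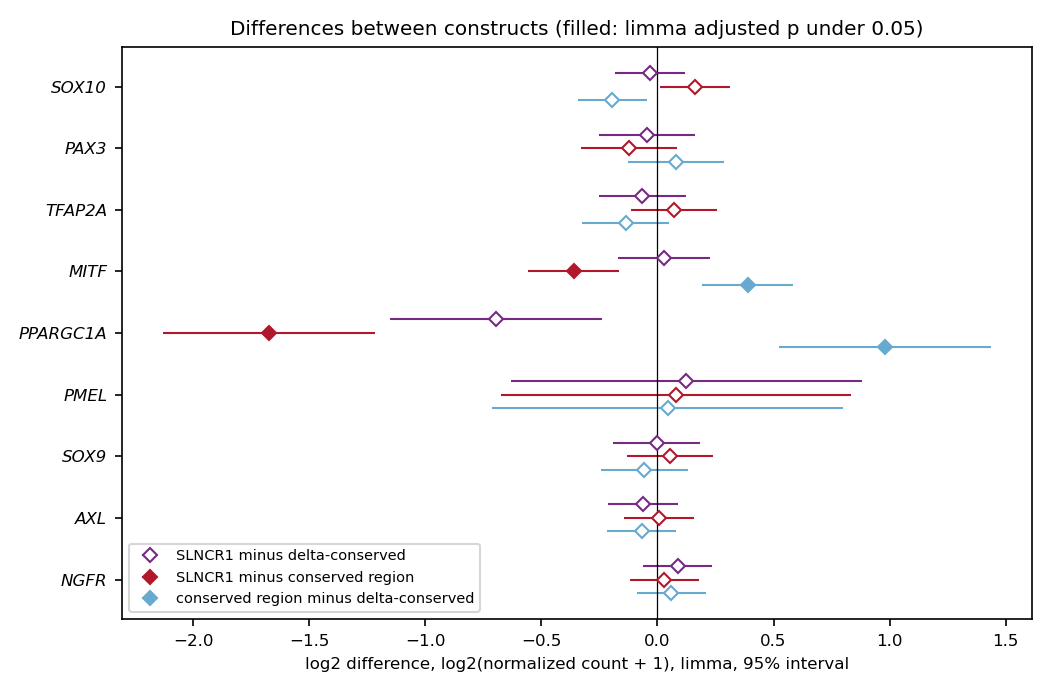
Limma log2 differences between constructs with 95% intervals for 9 members, as SLNCR1 minus delta-conserved, SLNCR1 minus conserved region and conserved region minus delta-conserved. Filled points have an adjusted p under 0.05: PPARGC1A and MITF in both comparisons with the conserved region.

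Genes of the same circuits were counted in lists by the authors' adjusted p, which called 0.0388% of all entries higher and 0.844% lower with SLNCR1, 1.11% higher and 1.14% lower with delta-conserved, and 0.0175% higher and 0% lower with the conserved region. Before adjustment, 6.25% of entries were under 0.05 with SLNCR1, 7.98% with delta-conserved and 1.34% with the conserved region. These shares are over all tested entries, not over expressed genes. The lists were chosen with earlier results of these data known, so counts beside these shares are descriptions, not tests. A mean of at least 10 was reached by 16223 of 33548 entries with SLNCR1 and 16110 of 34744 with delta-conserved. Limma called 3.94% of 16058 genes higher and 7.41% lower with SLNCR1, and 5.19% higher and 5.26% lower with delta-conserved. Without SLNCR1 library b, an alternative chosen after the data were seen, the limma shares with SLNCR1 were 0.430% higher and 4.18% lower. List medians are over members with a mean of at least 10, beside a median of all such genes of 0.0037 with SLNCR1, -0.0055 with delta-conserved and 0.0024 with the conserved region. Of 22 further melanosome and pigment genes, none passed with any construct in the authors' tables. Before adjustment, 0 had a p under 0.05 with SLNCR1, 0 with delta-conserved and 1 with the conserved region. Their median log2 fold change was -0.088 with SLNCR1, -0.052 with delta-conserved and -0.017 with the conserved region. By limma 1 of 14 measured pigment genes was lower with SLNCR1, a share near the 7.41% of all genes, and 0 without SLNCR1 library b.

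Of 18 genes that act on MITF or belong to its family, the authors' table called 1 lower with SLNCR1, 1 higher and 2 lower with delta-conserved, and none with the conserved region (1 before adjustment). These counts stand beside 0.882% of all entries called with SLNCR1 and 2.26% with delta-conserved. Limma called 3 of 16 lower with SLNCR1 (2 without SLNCR1 library b), and 2 higher and 2 lower with delta-conserved. The median was -0.00017 with SLNCR1, 0.021 with delta-conserved and 0.050 with the conserved region. BHLHE41, a repressor of the circadian clock, had 108 and 109 normalized counts with SLNCR1, 134 and 99.1 with delta-conserved, 565 and 601 with the conserved region, and 573 and 639 in vector cells. It fell in both of the authors' deposited tables concerned, at log2 fold changes of -2.48 with SLNCR1 (adjusted p = 1.57e-51) and -2.38 with delta-conserved (adjusted p = 3.84e-42). As for PPARGC1A, every SLNCR1 and delta-conserved library was below every conserved-region and vector library. In the authors' deposited delta-conserved table, CTNNB1, the beta-catenin gene that works with LEF1 on the MITF promoter, rose by 0.28 (adjusted p = 0.00921). ZEB2, a zinc-finger factor of differentiated melanocytes, fell there by 0.45 (adjusted p = 0.0108). With SLNCR1 the deposited log2 fold changes were 0.20 for CTNNB1 and -0.49 for ZEB2, and neither passed. Limma called ZEB2 lower with SLNCR1 too, at -0.50 (adjusted p = 0.00994).

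Among 16 other MITF targets, 1 rose and 1 fell with delta-conserved and none passed with SLNCR1 (3 before adjustment) or the conserved region (2 before adjustment), at medians of 0.058 with SLNCR1, 0.12 with delta-conserved and 0.024 with the conserved region. The share of all entries called was 2.26% with delta-conserved and 0.882% with SLNCR1. Limma called 3 of 14 higher and 2 lower with SLNCR1, and 2 higher and 2 lower with delta-conserved. Leaving out SLNCR1 library b, it called 0 higher and 1 lower with SLNCR1. In the authors' deposited delta-conserved table, TBX2, an anti-senescence factor, fell by 0.51 (adjusted p = 0.00495). ASAH1, acid ceramidase, rose there by 0.37 (adjusted p = 0.0466). With SLNCR1 the deposited log2 fold changes were -0.30 for TBX2 and 0.35 for ASAH1, and neither passed. Limma with both SLNCR1 libraries called TBX2 lower (adjusted p = 0.0379) and ASAH1 higher (adjusted p = 0.0142).

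In the PGC-1 network, 23 of 24 genes had a row and 1 rose and 1 fell with SLNCR1 and again with delta-conserved, while none passed with the conserved region (1 before adjustment). Over all entries 0.882% were called with SLNCR1 and 2.26% with delta-conserved. Limma called 2 of 22 higher and 2 lower with each of SLNCR1 and delta-conserved, and with SLNCR1 1 higher and 1 lower without SLNCR1 library b. The median was -0.0046 with SLNCR1, -0.0098 with delta-conserved and 0.016 with the conserved region. NR1D1, the clock repressor REV-ERB alpha, had 565 and 525 normalized counts with SLNCR1, 549 and 542 with delta-conserved, 1763 and 1853 with the conserved region, and 1615 and 1713 in vector cells. The authors' deposited tables gave a fall of 1.61 in log2 with SLNCR1 (adjusted p = 1.13e-41) and 1.61 with delta-conserved (adjusted p = 2.09e-64). SOD2, the mitochondrial superoxide dismutase that PGC-1 alpha is known to raise, rose in the authors' deposited tables by 0.44 with SLNCR1 (adjusted p = 0.0125) and by 0.36 with delta-conserved (adjusted p = 0.00822). The paralogue PPARGC1B had 446 and 315 normalized counts with SLNCR1, 452 and 439 with delta-conserved, 372 and 420.0 with the conserved region, and 458 and 436 in vector cells, and did not pass with any construct.

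Of 26 genes of the dedifferentiated and invasive state, 5 rose and 1 fell with delta-conserved, and none passed with SLNCR1 (7 before adjustment) or the conserved region (2 before adjustment). Over all entries 1.11% were higher and 1.14% lower with delta-conserved, and 6.25% were under 0.05 before adjustment with SLNCR1. The sets are unlike, since 25 of the 26 genes had a mean of at least 10, against 16110 of 34744 entries with delta-conserved. The list median was 0.050 with SLNCR1, 0.13 with delta-conserved and 0.052 with the conserved region. With delta-conserved the authors' deposited table had the matrix protein TNC at 0.34 (adjusted p = 6.75e-05), the matrix protein TGFBI at 0.36 (adjusted p = 0.000123), the YAP partner WWTR1 at 0.30 (adjusted p = 0.00189), the filament protein VIM at 0.34 (adjusted p = 0.00495) and fibronectin FN1 at 0.67 (adjusted p = 0.0178). The kinase NUAK1 fell by 0.61 (adjusted p = 0.000117). With SLNCR1 the deposited log2 fold changes were 0.17 for TNC, 0.26 for TGFBI, 0.25 for WWTR1 and 0.29 for VIM. Those of FN1 and NUAK1 were -0.14 and -0.53. By limma 4 of 25 were higher and 3 lower with SLNCR1, against 3.94% and 7.41% of all genes, and 9 were higher and 1 lower with delta-conserved, against 5.19% and 5.26%. The SLNCR1 counts without SLNCR1 library b were 0 higher and 1 lower. Whether SLNCR1 and delta-conserved differ in these genes was tested directly, and limma called 0 of 25 in a comparison with no call over all genes.

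**Figure D5:**
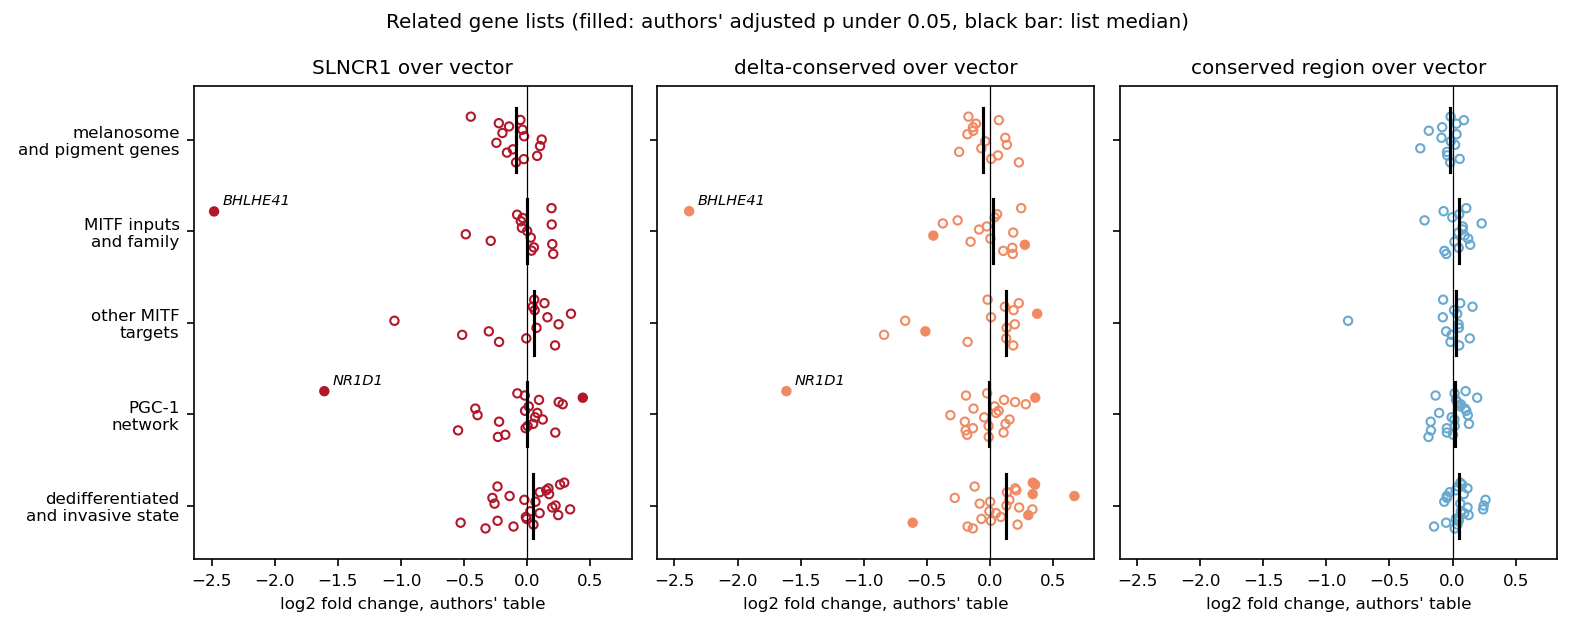
Log2 fold changes over vector from the authors' deposited tables for 5 gene lists (melanosome and pigment genes, MITF inputs and family, other MITF targets, PGC-1 network, dedifferentiated and invasive state), 1 panel each for SLNCR1, delta-conserved and the conserved region. Filled points have an adjusted p under 0.05, black bars are list medians, and the named points BHLHE41 and NR1D1 lie below -1.

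One fibroblast marker rose with delta-conserved. COL3A1, a fibrillar collagen, rose by a log2 of 3.66 in the authors' deposited table (adjusted p = 2.61e-09), and it alone of 6 markers passed. Before adjustment 3 of 6 were under 0.05 with delta-conserved, the others being the fibrillar collagen genes COL1A2, at 2.69 times the vector mean (adjusted p = 0.123), and COL1A1, at 1.33 times (adjusted p = 0.184), both in the authors' deposited table. COL3A1 had 3.998 and 4.38 normalized counts with SLNCR1, 50.8 and 45.1 with delta-conserved, 53.1 and 1.99 with the conserved region, and 4.02 and 3.53 in vector cells. The summed level of the 6 markers was 267 and 261 with SLNCR1, 401 and 399 with delta-conserved, 444 and 214 with the conserved region, and 266 and 291 in vector cells. Limma called 0 of the 6 with SLNCR1, and 1 lower without SLNCR1 library b. The part of fibroblast-type transcripts in these results was not tested. In the authors' deposited tables, markers of keratinocytes, endothelium, leukocytes, and neurons or Schwann cells had no member called with any construct. Limma called 1 of them, TUBB3 of the neuron and Schwann cell list, higher with delta-conserved at 0.26 (adjusted p = 0.0323), beside 0.22 with SLNCR1 (adjusted p = 0.0596). Summed levels of the keratinocyte markers were 708 and 768 with SLNCR1, 719 and 774 with delta-conserved, 667 and 735 with the conserved region, and 646 and 689.9 in vector cells. Summed levels of the 5 leukocyte markers were between 18.8 and 29.2 in all libraries, and those of the 5 endothelial markers between 33.5 and 53.1. The neuron and Schwann cell markers summed to 2670 and 2902 with SLNCR1, 2809.9 and 2852 with delta-conserved, 2493 and 2573 with the conserved region, and 2388 and 2544 in vector cells, so that all SLNCR1 and delta-conserved libraries lay above vector. No gene passed among 4 AXL partners, 10 NGFR partners or 7 paralogues of the lineage factors in the authors' deposited tables. Before adjustment, 1 AXL partner was under 0.05 with delta-conserved, 2 NGFR partners with SLNCR1 and 2 with delta-conserved, and 0 paralogues with any construct. Limma called the AXL ligand GAS6 lower with delta-conserved at -0.42 (adjusted p = 0.0117). It called NGFRAP1, on the list of NGFR partners, higher with SLNCR1 at 0.28 (adjusted p = 0.0255) and with delta-conserved at 0.25 (adjusted p = 0.0385). The SLNCR1 call was not made without SLNCR1 library b.

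Over the 8 libraries and 12433 genes with a mean of at least 50, the genes whose centred log2 levels lay nearest to PPARGC1A were SYDE2 (root mean square difference 0.157), CSMD3 (0.187), REL (0.211), ZNF699 (0.212) and KCNT2 (0.217), against 0.767 for PPARGC1A about its own mean. SYDE2 had means of 66.8 ± 37.0 normalized counts with SLNCR1, 87.1 ± 2.80 with delta-conserved, 176 ± 13.0 with the conserved region and 179 ± 8.52 with vector. REL had 107 ± 47.7 with SLNCR1, 161 ± 25.2 with delta-conserved, 293 ± 11.2 with the conserved region and 264 ± 27.9 with vector (SD, n = 2 each). The genes nearest to SOX10 were GNAI2 (0.0168), GALNT2 (0.0172), COL4A2 (0.0176), NUCB1 (0.0181) and PABPC4 (0.0198), against 0.118 for SOX10 itself. GNAI2 had 2861 ± 106 normalized counts with SLNCR1, 2887 ± 71.2 with delta-conserved, 2551 ± 118 with the conserved region and 2417 ± 137 with vector. These are descriptions over 8 libraries that share depth and group, with no test.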

How the data were processed

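Poly(A)-selected RNA of 8 A375 libraries in 4 groups of 2 was sequenced without strand information, per the labels' protocols, so antisense overlaps were not separated. STAR, featureCounts and DESeq were used with hg19, per the submitters' processing notes. Tool versions and annotation: not given in the sources used here. In the deposited tables, the signal is the authors' group mean of reads divided by size factors. The fold change is the deposited ratio of construct to vector mean, of which log2 was taken here. All p-values against vector are the authors' own, as deposited, unless limma is named.

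Because each group mean adds up whole reads of 2 libraries, each read worth a fixed step, the reads per library could be solved for (1 solution for 100% of genes, and for 99.981% with the conserved region). Solving for reads was tested on simulated group means that used the steps already fitted to these data. How well the steps themselves were fitted was not tested. Reads were normalized by median-of-ratios size factors over 8 libraries and tested with limma 3.58.1 in R 4.3.3 (4 groups, variance trend, 4 residual degrees of freedom, prior 13.6) on log2(normalized count + 1). The fit took the 16058 genes averaging 10 or more, adjusted by Benjamini-Hochberg, and this scale understates changes of low genes. The limma step was tested on simulated data. Python 3.11.15 was used.

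Members and lists were chosen with earlier results of these data known. Named were the members, up to 4 called genes per list, the 5 nearest genes of each called member, and LINC00511. VIM, FN1, PPARGC1B, COL1A1, COL1A2, TUBB3, GAS6, NGFRAP1, the keratinocyte, endothelial and melanocyte markers named, and the gene length split were chosen after values were seen. Exon lengths, from GENCODE release 29, covered 85.8% of tested genes. For the members they are the union of exons over all annotated transcripts, not the length of an expressed transcript.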

Additional observations from a re-analysis of the deposited data

How the results depend on the processing

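No paired analysis was possible because the deposited columns are group means and carry no replicate numbers, so the recovered libraries cannot be tied to a replicate. Read against limma in place of the authors' test, the members called with SLNCR1 numbered 2 rather than 1, the added one being SOX10. Adjusting the authors' p-values again over entries with a mean of at least 10 left all 3 counts as they were. By limma without a filter on low counts, 1 member was called with SLNCR1 and 1 with delta-conserved against vector, 1 between SLNCR1 and the conserved region, and 1 between the conserved region and delta-conserved. Without the variance trend these counts were 1, 0, 1 and 0. Leaving out each library in turn gave 1 to 3 members for SLNCR1 against vector, 0 to 3 for delta-conserved against vector, 0 to 1 for SLNCR1 against delta-conserved, 1 to 2 for SLNCR1 against the conserved region, and 0 to 3 for the conserved region against delta-conserved. Where a library leaves a group with 1 sample, that sample is assumed to vary like the other groups. No member was called with the conserved region against vector in any setting. Of 804 member values under alternatives, 727 kept their side of the threshold and moved by no more than 1 SE where not called, and 36 uncalled values moved further. A call was lost in 32 and gained in 9, and 0 called values reversed. Among the uncalled values 41 changed sign. The cause of these changes was not tested. Depth limits TYR, with 5 reads in all libraries, and PMEL had 250.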
